A study of Mus musculus with 16 samples.

Results

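The genes described here are 10 basement membrane genes, namely the laminin chains Lama1, Lama2, Lama4, Lama5, Lamb1, Lamb2 and Lamc1, the nidogens Nid1 and Nid2, and Hspg2, which encodes perlecan. They were listed by name, with Lama5 chosen because it ranked among the smallest p-values of the gRNA comparison in these same libraries. All 10 were found among 57132 genes of the count tables, and all 10 were among the 17704 genes that passed the low-count filter. The cells were mouse neural stem cells kept in self-renewing conditions that the labels abbreviate as GF, a term the labels do not explain. The gRNA group received TAPIR and the control group did not; both groups share the GF conditions. The labels explain neither TAPIR nor what its guide RNA targets, and no targeted gene was therefore read as a check. There were 6 gRNA and 6 control RNA-seq libraries, and each of 2 labelled batches held 3 gRNA and 3 control libraries. Libraries are called gRNA 4 to 6 and control 4 to 6 in batch 2, and gRNA 1 to 3 and control 1 to 3 in batch 1. The numbers are names only, and the labels do not say whether any libraries were paired. The labels do not say whether libraries came from separate cultures, so p-values measure the spread between libraries, which may be technical.

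Basement membranes are thin sheets of extracellular matrix. Laminins are their first layer: each laminin is a trimer of 1 alpha, 1 beta and 1 gamma chain, joined in the cell before secretion, and the alpha chain carries the domains that bind integrins and dystroglycan. Nidogens bind the laminin gamma chain and type IV collagen and so link both networks, and perlecan is a large heparan sulfate proteoglycan that holds growth factors in the matrix. In the brain, laminins surround vessels, line the pial surface and form the branching structures called fractones in the ventricular niche of neural stem cells. Cultured neural stem cells also make laminins themselves.

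Gene totals per library ranged between 8414028 and 19454390 reads, with a median of 14918917. Between 8.83% and 12.7% of reads fell in no gene in batch 2, against 18.95% to 25.07% in batch 1. Of the neural stem cell list, 12 of 12 genes passed the low-count filter, among them Sox2, with up to 191 CPM, and Nes, with up to 803 CPM. CPM is the count of a gene scaled to a common library total, here with library sizes adjusted by the trimmed mean of M-values (TMM). These levels are not divided by gene length, so they compare libraries for 1 gene and not 1 gene with another. Ribosome footprints on the coding sequences of these genes were not analysed here.

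Levels in the 2 batches stood apart for most of these genes. Between batch 2 and batch 1, 8 of the 10 genes passed the threshold: Hspg2, Lamb1 and Lama5 were higher in batch 2, and Nid1, Lama4, Lama2, Lama1 and Lamc1 were lower. Nid1 was 288-fold lower in batch 2, a size that rests on at most 9 counts per library there, and perlecan was 2.88-fold higher. Lamb2 and Nid2 did not pass. The test was edgeR's quasi-likelihood test with treatment as a term and Benjamini-Hochberg adjustment over all genes, with a threshold of 0.05, and 61.4% of all genes tested passed it (28.4% higher and 33.1% lower). Under a second rule that asks for a change past 2-fold, which 22.5% of all genes met (7.34% higher and 15.1% lower), 4 of the 10 passed, Hspg2 as higher and Nid1, Lama4 and Lama2 as lower. Nid1, Lama4 and Lama2 passed the low-count filter only through batch 1, where they are high, and so had to differ; their place in these counts supports nothing about the group of genes. Each of them also passed when no filter was used. The labels do not say what the batch stands for, so culture, cell line, preparation and sequencing run cannot be told apart. In bulk RNA, fewer cells of a type and less RNA per cell cannot be told apart either.

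**Figure D1:**
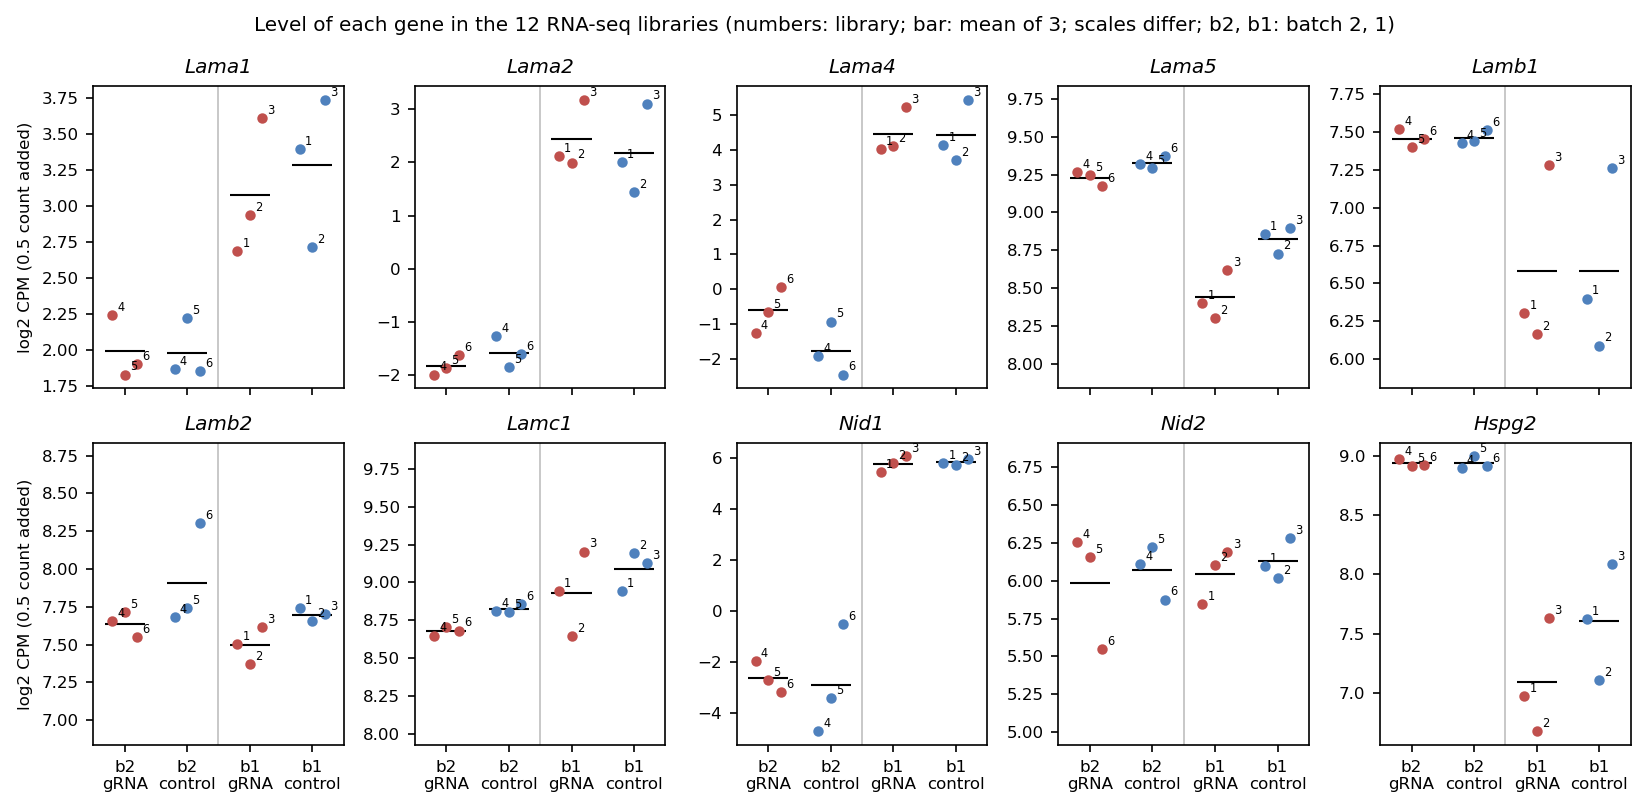
Level of each of the 10 genes in the 12 RNA-seq libraries, as log2 CPM with 0.5 count added. Each point is 1 library with its number, each bar is the mean of 3 libraries, red is gRNA and blue is control, with batch 2 left of the line and batch 1 right of it; vertical scales differ between genes. Nid1, Lama4 and Lama2 sit near the bottom of their scales in batch 2, and Hspg2, Lama5 and Lamb1 are higher in batch 2 than in batch 1.

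The alpha chains decide which receptor a laminin binds. Lama5 (ENSMUSG00000015647.10) encodes the alpha chain of the widespread laminins of adult basement membranes, which bind integrins with an alpha 3 or alpha 6 subunit. In batch 2 it had 616, 608 and 579 CPM in gRNA libraries 4, 5 and 6, and 639, 628 and 662 CPM in control libraries 4, 5 and 6. In batch 1 it had 338, 315 and 393 CPM in gRNA libraries 1, 2 and 3, and 464, 424 and 476 CPM in control libraries 1, 2 and 3. Every library of batch 2 was above every library of batch 1, a gap without overlap that 41.6% of all genes tested showed in 1 direction or the other. Batch 2 against batch 1 gave a log2 fold change of 0.64 (SE 0.079, edgeR adjusted p = 6.75e-06), or 1.56-fold.

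Lama4 (ENSMUSG00000019846.12), the alpha chain best known from vessel walls, fat and muscle, was nearly silent in batch 2. Its counts there were 7, 10 and 14 in gRNA libraries 4, 5 and 6, and 3, 8 and 2 in control libraries 4, 5 and 6. Batch 1 libraries reached 16.3, 17.2 and 38.0 CPM in gRNA libraries 1, 2 and 3, and 17.6, 13.1 and 43.6 CPM in control libraries 1, 2 and 3. The batches did not overlap, and within batch 1 the libraries numbered 3 were the 2 highest. This was a log2 fold change of −5.66 (SE 0.44), and −5.04 without gRNA 3 and control 3, a choice made after seeing the data. No p is given, since Lama4 passed the low-count filter only through batch 1.

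Lama2 (ENSMUSG00000019899.18), the alpha chain whose loss causes a congenital muscular dystrophy, showed the same order. It had 4 counts in each of the gRNA libraries of batch 2, and 5, 4 and 4 counts in control libraries 4, 5 and 6. Libraries of batch 1 held 4.29, 3.96 and 9.02 CPM in gRNA libraries 1, 2 and 3, and 3.96, 2.66 and 8.57 CPM in control libraries 1, 2 and 3. Batch 2 lay below batch 1 without overlap, and again gRNA 3 and control 3 were the highest libraries. Batch 2 against batch 1 came to a log2 fold change of −4.29 (SE 0.37), and −3.69 without gRNA 3 and control 3. For the same reason as with Lama4, no p is given.

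Lama1 (ENSMUSG00000032796.9), the alpha chain of the first basement membranes of the embryo, was low in both batches. Batch 2 held 4.69, 3.52 and 3.69 CPM in gRNA libraries 4, 5 and 6, and 3.61, 4.62 and 3.57 CPM in control libraries 4, 5 and 6. Batch 1 held 6.39, 7.64 and 12.2 CPM in gRNA libraries 1, 2 and 3, and 10.5, 6.51 and 13.3 CPM in control libraries 1, 2 and 3. Although its batches did not overlap either, with batch 2 below, the distance was smaller: the log2 fold change was −1.26 (SE 0.21, edgeR adjusted p = 0.000101). It did not pass the rule of a change past 2-fold (edgeR adjusted p = 0.147).

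The beta and gamma chains complete the trimer. Lamb1 (ENSMUSG00000002900.18), the beta chain of most embryonic laminins, had 184, 169 and 175 CPM in gRNA libraries 4, 5 and 6 of batch 2, and 172, 174 and 182 CPM in control libraries 4, 5 and 6. Batch 1 had 78.8, 71.6 and 156 CPM in gRNA libraries 1, 2 and 3, and 84.4, 68.0 and 154 CPM in control libraries 1, 2 and 3. The 6 libraries of batch 2 were close together, whereas in batch 1 gRNA 3 and control 3 lay well above the other 4 libraries; the batches did not overlap. The log2 fold change of batch 2 against batch 1 was 0.78 (SE 0.20, edgeR adjusted p = 0.00362), and 1.25 without gRNA 3 and control 3.

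Lamb2 (ENSMUSG00000052911.10), the beta chain of synaptic and kidney filter laminins, did not pass. It had 202, 210.0 and 187 CPM in gRNA libraries 4, 5 and 6 of batch 2, and 205, 214 and 315 CPM in control libraries 4, 5 and 6. In batch 1 it had 182, 165 and 196 CPM in gRNA libraries 1, 2 and 3, and 214, 201 and 208 CPM in control libraries 1, 2 and 3. Control 6 stood above the other 11 libraries, and the batches overlapped. Its log2 fold change was 0.19 (SE 0.098, edgeR adjusted p = 0.11), with a 95% interval between −0.02 and 0.40. Without control 6 it was 0.09, and without control 4 it was 0.24 and passed (edgeR adjusted p = 0.0498).

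Lamc1 (ENSMUSG00000026478.15) encodes the gamma chain found in most laminins and binds nidogen. Its level was 401, 417 and 411 CPM in gRNA libraries 4, 5 and 6 of batch 2, and 449, 446 and 463 CPM in control libraries 4, 5 and 6. In batch 1 it was 492.9, 400.2 and 590 CPM in gRNA libraries 1, 2 and 3, and 492, 586 and 559 CPM in control libraries 1, 2 and 3. Batch 2 was lower on average, but gRNA 2 of batch 1 lay below all libraries of batch 2. On the log2 scale batch 2 fell by 0.27 (SE 0.086, edgeR adjusted p = 0.0141), and it no longer passed without gRNA 3 and control 3 (log2 fold change −0.15, edgeR adjusted p = 0.091).

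The nidogens behaved differently from each other. Nid1 (ENSMUSG00000005397.9) had 4, 2 and 1 counts in gRNA libraries 4, 5 and 6 of batch 2, and 0, 1 and 9 counts in control libraries 4, 5 and 6. In batch 1 it had 43.3, 55.0 and 66.6 CPM in gRNA libraries 1, 2 and 3, and 55.8, 53.1 and 61.8 CPM in control libraries 1, 2 and 3, which were between 400 and 1183 counts. No library of batch 2 came near the range of batch 1. The log2 fold change was −8.17 (SE 0.32), and it was −8.97 without control 6, which held 9 of the counts of batch 2. No p is given for Nid1, which passed the low-count filter only through batch 1.

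Nid2 (ENSMUSG00000021806.5), its paralog, had 76.4, 71.4 and 46.7 CPM in gRNA libraries 4, 5 and 6 of batch 2, and 69.1, 74.6 and 58.7 CPM in control libraries 4, 5 and 6. Batch 1 gave 57.5, 68.6 and 73.0 CPM in gRNA libraries 1, 2 and 3, and 68.3, 64.7 and 77.7 CPM in control libraries 1, 2 and 3. The batches overlapped, and gRNA 6 and control 6 were the lowest of batch 2. Its log2 fold change was −0.05 (SE 0.12, edgeR adjusted p = 0.746), with a 95% interval between −0.29 and 0.20, and leaving out gRNA 6 turned its sign to 0.04.

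Hspg2 (ENSMUSG00000028763.19), the perlecan gene, was even across batch 2. It had 502, 483 and 484 CPM in gRNA libraries 4, 5 and 6, and 477, 510.2 and 482 CPM in control libraries 4, 5 and 6. Its batch 1 values were 126, 102 and 198 CPM in gRNA libraries 1, 2 and 3, and 197, 138 and 272 CPM in control libraries 1, 2 and 3. All libraries of batch 2 were above all of batch 1, where control 3 was the highest. The log2 fold change was 1.53 (SE 0.18, edgeR adjusted p = 4.13e-06), and it also passed the rule of a change past 2-fold (edgeR adjusted p = 0.00535).

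**Figure D2:**
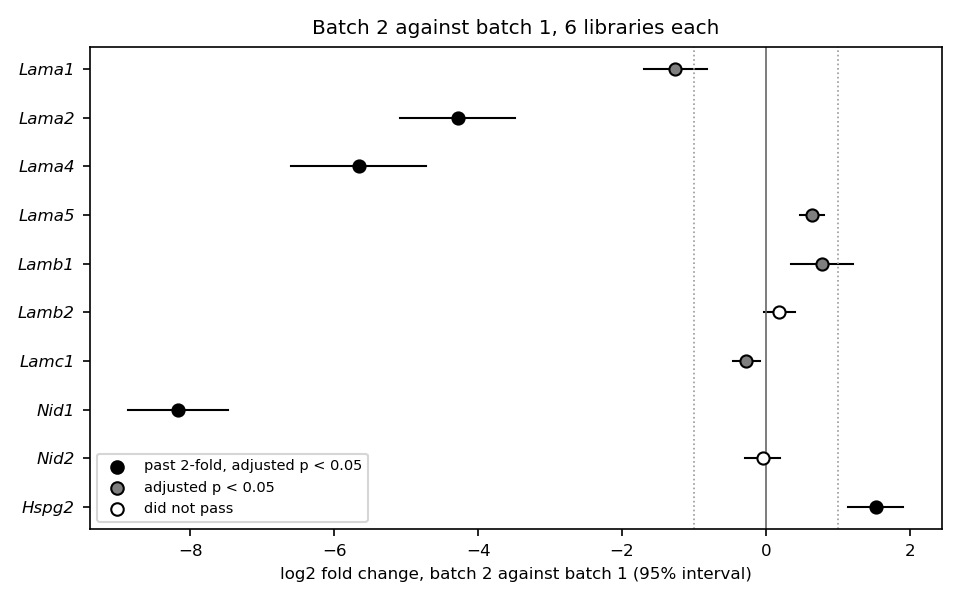
Log2 fold change of batch 2 against batch 1 for each gene, with its 95% interval from 6 libraries per batch; black points passed the rule of a change past 2-fold, grey points passed the threshold of 0.05 only, open points passed neither, and dotted lines mark a 2-fold change. Nid1, Lama4 and Lama2 lie far to the left at −8.17, −5.66 and −4.29, and Hspg2 lies farthest to the right at 1.53.

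Promoter windows are shown for the 2 genes with few or no reads in batch 2 that have one in the RefSeq table (Nid1 and Lama2) and for the 3 genes that were higher there (Hspg2, Lama5 and Lamb1), since these are the genes whose transcript levels moved apart. Of the 10 genes, 6 had a window in the RefSeq table; the other is that of Lamb2. The windows are from RefSeq on GRCm38.p6, while the counts were made on GRCm39, and each runs 5′ to 3′ on the gene's strand, 250 bases before to 50 bases after the start. Capitals mark GC boxes, searched as GGGCGG and, on the other strand, CCGCCC. The Nid1 window is chr13:13437352-13437651 (plus strand), that of Lama2 chr10:27616893-27617192 (minus strand), that of Hspg2 chr4:137468553-137468852 (plus strand), that of Lama5 chr2:180225810-180226109 (minus strand) and that of Lamb1 chr12:31265043-31265342 (plus strand).
Nid1: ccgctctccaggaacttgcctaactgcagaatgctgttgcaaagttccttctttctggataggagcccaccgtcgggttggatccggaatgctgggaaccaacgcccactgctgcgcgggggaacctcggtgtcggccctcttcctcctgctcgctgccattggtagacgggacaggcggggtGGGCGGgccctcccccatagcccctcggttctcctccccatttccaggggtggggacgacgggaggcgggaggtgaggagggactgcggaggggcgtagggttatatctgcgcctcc
Lama2: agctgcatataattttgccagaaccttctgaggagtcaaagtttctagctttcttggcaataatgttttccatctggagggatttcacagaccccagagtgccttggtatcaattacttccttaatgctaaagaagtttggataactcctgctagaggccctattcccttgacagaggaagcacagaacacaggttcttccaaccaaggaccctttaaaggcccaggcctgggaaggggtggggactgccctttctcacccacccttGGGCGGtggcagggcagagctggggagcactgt
Hspg2: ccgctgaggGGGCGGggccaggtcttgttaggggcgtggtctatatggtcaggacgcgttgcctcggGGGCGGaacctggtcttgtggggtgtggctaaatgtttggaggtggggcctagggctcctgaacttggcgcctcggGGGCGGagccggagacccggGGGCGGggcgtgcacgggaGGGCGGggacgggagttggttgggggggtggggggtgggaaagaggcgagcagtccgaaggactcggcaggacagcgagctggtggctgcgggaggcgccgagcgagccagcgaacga
Lama5: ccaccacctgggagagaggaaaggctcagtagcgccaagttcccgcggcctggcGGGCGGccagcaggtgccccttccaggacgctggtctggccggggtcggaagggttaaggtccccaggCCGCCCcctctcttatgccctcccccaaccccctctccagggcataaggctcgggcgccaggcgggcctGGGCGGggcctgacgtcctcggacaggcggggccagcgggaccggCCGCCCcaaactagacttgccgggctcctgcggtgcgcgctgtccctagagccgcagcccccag
Lamb1: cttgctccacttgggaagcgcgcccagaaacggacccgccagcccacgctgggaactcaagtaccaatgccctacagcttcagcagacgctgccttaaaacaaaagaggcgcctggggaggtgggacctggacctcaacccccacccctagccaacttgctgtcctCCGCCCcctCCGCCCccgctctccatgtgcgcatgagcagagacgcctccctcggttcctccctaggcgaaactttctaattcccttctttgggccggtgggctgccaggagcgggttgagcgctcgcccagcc

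The windows of the 3 genes that were higher in batch 2 and that of Nid1 held more CG dinucleotides than the median window. Those of Lama2 and Lamb2 held fewer. The share of all windows with fewer was 84.5% for Hspg2, 80.0% for Lama5, 73.5% for Nid1, 70.3% for Lamb1, 31.4% for Lamb2 and 5.43% for Lama2. Hspg2 held 27 CG dinucleotides, Lama5 24, Nid1 20, Lamb1 18, Lamb2 4 and Lama2 1, against a median of 7 over the 32851 windows of the table. GC boxes numbered 5 in Hspg2, 4 in Lama5, 2 in Lamb1, 1 in Nid1, 1 in Lama2 and 0 in Lamb2, and 35.7% of all windows held at least 1. The CCAAT box, searched as CCAAT and ATTGG, stood once in Nid1 and once in Lamb1, against 37.4% of all windows with at least 1. The TATA box, searched as TATAAA and TTTATA, was in 0 of the 6 windows and in 13.6% of all. These matches describe letters in the windows and say nothing of factors bound there.

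Within batch 1, the libraries gRNA 3 and control 3 stood apart from the other 4 for most of these genes. Both lay above all the others for 7 of the 10 genes (Lama1, Lama2, Lama4, Lamb1, Nid1, Nid2 and Hspg2) and both below for 0, against 19% of all genes tested above and 16% below. The mean of these 2 libraries over that of the other 4 was 2.54 for Lama4, 2.37 for Lama2, 2.04 for Lamb1, 1.67 for Hspg2, 1.65 for Lama1, 1.24 for Nid1 and 1.16 for Nid2. Lama5, Lamb2 and Lamc1 were not both above, with ratios of 1.13, 1.06 and 1.17. The summed level of the 6 astrocyte markers was 443 CPM in gRNA 3 and 429 CPM in control 3, against 642 to 670.1 CPM in the other 4 libraries of batch 1. Other marker sums set these 2 libraries, picked after seeing the data, apart for some lists and not for others. In gRNA 3 and control 3 they were 11.9 and 10.1 CPM for the endothelial list (6.37 to 8.08 CPM in the other 4) and 112 and 122 CPM for the fibroblast list (100.4 to 111 CPM). They were 66.8 and 71.0 CPM for the ependyma list (49.96 to 60.3 CPM), 6.57 and 5.59 CPM for the microglia list (2.92 to 3.26 CPM) and 335 and 350 CPM for the mural list (363 to 405 CPM). For the Schwann and neural crest list they were 7.16 and 7.68 CPM (9.28 to 11.6 CPM). Other lists lay within the range of the other 4 libraries. These were the neural stem cell list (3102 and 2956 CPM, in 2813 to 4507 CPM) and the neuronal list (745 and 699 CPM, in 691 to 995 CPM). So did the oligodendrocyte lineage list (96.1 and 112 CPM, in 77.5 to 121 CPM) and the epithelial list (0.478 and 0.261 CPM, in 0.142 to 0.798 CPM). Single genes carried much of some sums. Foxj1 of the ependyma list reached 69.5 CPM, where Ttr, Tmem212 and Folr1 had at most 2, 2 and 3 counts. Foxc1 of the fibroblast list reached 95.6 CPM, and Map2 of the neuronal list had 607 to 918 CPM in batch 1. Such a sum can follow 1 gene rather than its list. The part of these markers in the result was not tested. No treatment label separates these 2 libraries from the rest, since 1 is gRNA and 1 is control.

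**Figure D3:**
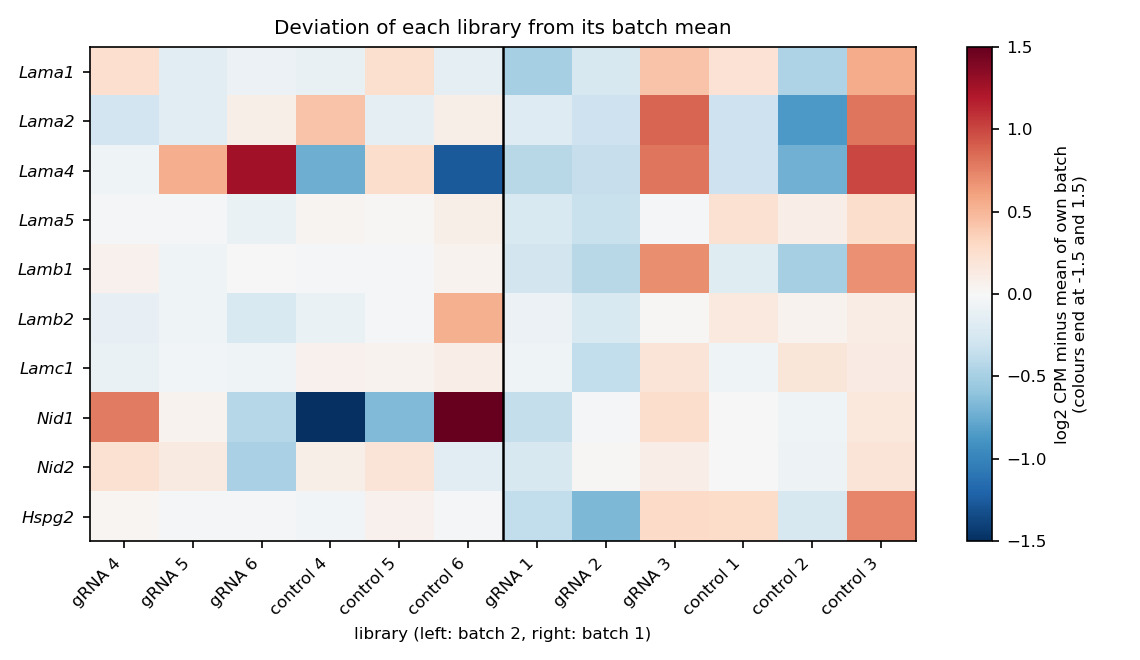
Deviation of each library from the mean of its own batch, as a difference of log2 CPM, with red above and blue below the mean and colours ending at −1.5 and 1.5. The columns gRNA 3 and control 3 are red for 7 genes that lie above the other 4 libraries of batch 1; the strong colours of Nid1 and Lama4 in batch 2 rest on at most 14 counts per library.

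The gRNA and control libraries differed little beside the batches. Because Lama5 was chosen from this comparison, its values and those of the other 9 genes are given as a description, without a test of that difference; the change of the difference between batches is a contrast of its own and was tested. Over both batches, with batch as a term, 0% of the 17704 genes passed the threshold, with 230 genes under 0.05 before adjustment. DESeq2 also called 0 genes (285 before adjustment), and limma-voom 0 (232). The log2 fold change of gRNA against control was below 0 for 8 of the 10 genes, with a median of −0.10, while 52.3% of all genes were below 0, with a median of −0.01. Nothing is read from this count. The 8 include Lama5, chosen for this difference, and Lamb1, Nid2, Nid1 and Lama1, whose direction turned when 1 library was left out.

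Lama5 was at −0.24 (SE 0.079, 95% interval between −0.41 and −0.07), a difference of −15.3%. Its gRNA libraries lay below its control libraries without overlap in both batches, as for 0.0791% of all genes tested, and nothing is read from that share or from the interval, since Lama5 was chosen for this difference. Its mean was 601 ± 19.8 CPM in gRNA and 643 ± 17.6 CPM in control libraries of batch 2, and 349 ± 40.2 CPM in gRNA and 454 ± 27.1 CPM in control libraries of batch 1 (SD, n = 3 each). From low to high the order was batch 1 gRNA, batch 1 control, batch 2 gRNA and batch 2 control, and no neighbours in it overlapped. Within batch 2 the log2 fold change was −0.10 (SE 0.10), and within batch 1 it was −0.38 (SE 0.10). The difference of the effect, batch 2 minus batch 1, was 0.28 (SE 0.15, edgeR adjusted p = 1.00 for the interaction). Leaving out 1 library at a time gave values between −0.27 and −0.19.

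Lamb2, Lamc1 and Hspg2 were the others with a log2 fold change of −0.14 or lower. Lamb2 was at −0.25 (SE 0.098), and at −0.14 without control 6. Its gRNA libraries lay below control in batch 1 only (2.24% of all genes), since in batch 2 gRNA 5 was above control 4. Lamc1 was at −0.14 (SE 0.086), and at −0.08 without gRNA 2; it lay below control without overlap in batch 2 only (2.41% of all genes). None of the 10 genes lay above control without overlap in batch 2 or in batch 1, where 2.99% and 3.02% of all genes did. Hspg2 was at −0.25 (SE 0.17), from 0.0004 (SE 0.23) within batch 2 and −0.51 (SE 0.24) within batch 1, and at −0.09 without control 3. Its gRNA and control libraries overlapped in both batches. The difference of the effect, batch 2 minus batch 1, was 0.51 (SE 0.33) for Hspg2, −0.10 (SE 0.20) for Lamb2 and −0.001 (SE 0.18) for Lamc1, so a gap without overlap in 1 batch only is not shown to differ between batches.

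The 6 remaining genes, like Hspg2, overlapped between gRNA and control in both batches. Their log2 fold changes were 0.17 (SE 0.39) for Lama4, 0.06 (SE 0.34) for Lama2, −0.003 (SE 0.20) for Lamb1, −0.07 (SE 0.12) for Nid2, −0.10 (SE 0.26) for Nid1 and −0.11 (SE 0.20) for Lama1. For each of these 6, leaving out 1 library turned the direction: Lamb1, for example, was at −0.20 without gRNA 3 and at 0.20 without control 3. The widest intervals belonged to Lama4 and Nid1 within batch 2, where a library held at most 14 and 9 counts. The interaction test passed for 0% of 18279 genes, with 236 genes under 0.05 before adjustment; DESeq2 called 0 (261 before adjustment). For all 10 genes the adjusted p of the difference between batches was 1.00.

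**Figure D4:**
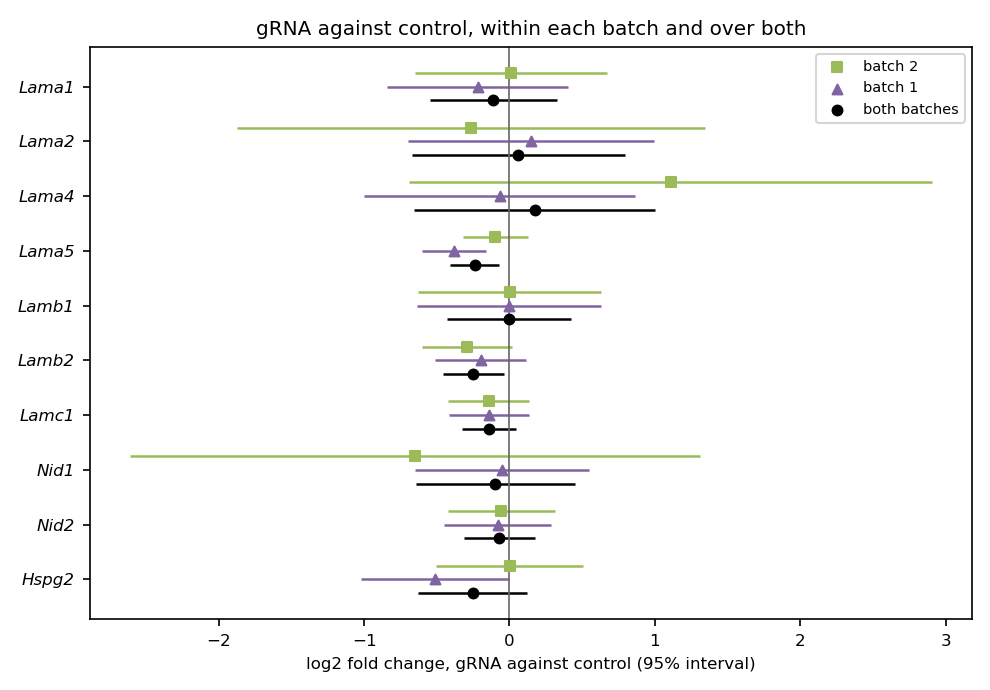
Log2 fold change of gRNA against control with its 95% interval, within batch 2 (green squares), within batch 1 (purple triangles) and over both batches (black circles). Lama5 over both batches lies at −0.24, and the batch 2 intervals of Lama4, Nid1 and Lama2 are the widest.

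The genes whose levels followed Lama5 most closely from library to library were found by Pearson's r over the 12 libraries. Before this the mean of each batch was taken out of log2 CPM. The search covered 11413 genes with a symbol that averaged 50 counts or more, with predicted genes and clones left out. This is a description; the points share libraries and depth, and Lama5's spread holds the gRNA difference it was chosen for. The 5 highest were Ep400 (r = 0.84), a chromatin remodeller, Ints1 (0.84), a subunit of the Integrator complex, Hspg2 (0.82), Ubr4 (0.82), a ubiquitin ligase, and Mcm3ap (0.82), an mRNA export factor. Without the 2 libraries farthest from the median of Lama5 the r of Hspg2 was 0.55, while that of Ints1 was 0.84. Of the other laminin genes, Lamc1 had an r of 0.66, Lamb2 0.62, Lama1 0.54, Lamb1 0.42, Lama2 0.24 and Lama4 0.02.

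The partners of laminin in the basement membrane also differed between the batches. Here and in the following lists, genes outside the rule for named genes (those with fewer counts or a smaller change) were picked after their values were seen. Genes near 0 in batch 2 passed the low-count filter only through batch 1, as Nid1, Lama4 and Lama2 did. Likewise, genes near 0 in batch 1 passed it only through batch 2. The counts stand against 28.4% higher and 33.1% lower among all genes tested, and nothing is called particular to a list. Of 8 type IV, XV and XVIII collagen genes 6 were tested: 3 were higher in batch 2, 1 was lower and 2 did not pass. Col4a1 and Col4a2, the chains of the common type IV collagen network, had medians of 198 and 128 CPM in batch 2 against 43.9 and 20.6 CPM in batch 1. Their log2 fold changes were 2.19 (SE 0.084, edgeR adjusted p = 4.80e-11) for Col4a1 and 2.49 (SE 0.16, edgeR adjusted p = 7.34e-09) for Col4a2. Col18a1, the source of endostatin, was lower, at 1.95 to 3.06 CPM in batch 2 against 69.1 to 84.2 CPM in batch 1 (log2 fold change −4.79). Col4a4 was the third higher gene. Col4a5 and Col4a6 did not pass, and both passed as lower once gRNA 6 and control 6 were left out, which made 3 lower collagens.

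The other laminin chains and the netrins, secreted proteins with laminin-like domains, split evenly: of 7 tested 4 were higher and 3 lower. Ntn3 had a log2 fold change of 1.72 and Ntn1 of 0.33, while Ntn4, which binds laminin gamma chains, was lower at −0.78. Ntn5 (3.09) and Lamb3 (1.70) were also higher on the log2 scale. With at most 0.330 CPM in batch 1, Ntn5 passed the low-count filter only through batch 2 and so had to differ. Lama3, the alpha chain of epithelial laminins, had at most 0.279 CPM in any library of batch 2 and 1.70 to 3.55 CPM in batch 1, and was lower too. Among 19 other basement membrane proteins, 10 were higher, 5 lower and 4 did not pass. Hmcn1, which encodes hemicentin, rose by a log2 fold change of 2.76 and Egfl7, a secreted factor of vessels, by 2.56. Vwa1, which binds perlecan, fell by 3.63, and Frem1 fell by 3.50 on the log2 scale. Agrn, the heparan sulfate proteoglycan agrin, was higher by 0.53 (log2).

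Of 14 laminin receptor genes, 4 were higher in batch 2, 7 lower and 3 did not pass; there were 3 higher and 6 lower without both libraries numbered 3, and likewise without both numbered 6. Bcam, which binds Lama5-containing laminins, had a log2 fold change of 1.63 (SE 0.18, edgeR adjusted p = 2.81e-06) and Sdc1 of 0.69. Itga7 (−1.25) and Itga1 (−1.11), integrin subunits that bind laminin, were lower. The shared integrin subunit Itgb1 (−0.11, edgeR adjusted p = 0.502) and dystroglycan, Dag1 (0.11, edgeR adjusted p = 0.311), did not pass. Among 13 genes that add the sugar chain by which dystroglycan holds laminin, 3 were higher, 4 lower and 6 did not pass, with 2 lower of 12 tested without gRNA 3 and control 3. Pomgnt2 (0.80) and B3galnt2 (0.61) were higher, while Ispd had at most 0.112 CPM in any library of batch 2 and 12.2 to 15.2 CPM in batch 1.

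Matrix proteases and their inhibitors were lower in 7 of 14 tested genes, with 0 higher and 7 that did not pass. There were 1 higher and 6 lower without gRNA 3 and control 3, and 1 higher and 9 lower without gRNA 6 and control 6. Some of the lower genes are near 0 in batch 2 and had to differ. Mmp16 had at most 0.0616 CPM in batch 2 and 18.1 to 32.7 CPM in batch 1. Timp3, an inhibitor bound to the matrix, had at most 0.308 CPM in batch 2 and 44.9 to 72.4 CPM in batch 1, a log2 fold change of −7.90. Of 16 enzymes that build or trim the heparan sulfate carried by perlecan and agrin, 6 were higher, 5 lower and 5 did not pass. Glce, the epimerase of the chain, rose by 1.82 and Hs6st2 by 0.91 on the log2 scale. The sulfatase Sulf1 had at most 0.0606 CPM in batch 2 and 5.31 to 21.5 CPM in batch 1, and its paralog Sulf2 fell by 0.34. In the gRNA comparison, 0 genes of these lists passed in edgeR, as did 0 of all genes.

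**Figure D5:**
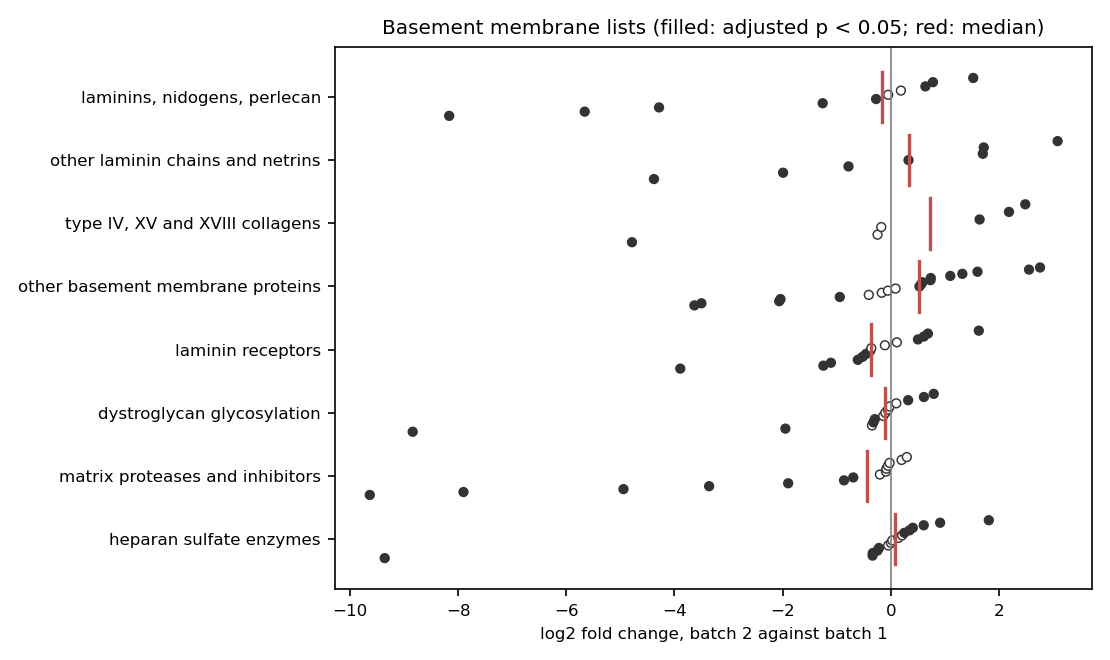
Log2 fold change of batch 2 against batch 1 for every tested gene of the 8 basement membrane lists; filled points passed an adjusted p of 0.05, open points did not, and the red line is the median of each list. The laminins, nidogens and perlecan have a median of −0.16 and spread to both sides, as the other lists do. Among the proteases and inhibitors the 7 filled points lie to the left. Some of them are genes near 0 in batch 2 that had to differ, and open points lie on both sides.

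Marker lists of other cells that make basement membrane were read beside these levels. Their counts stand against 28.4% higher and 33.1% lower among all genes tested, and nothing is called particular to a list. Of 8 endothelial markers 5 passed the low-count filter, 1 of them higher in batch 2 and 2 lower. The summed level of all 8 was 8.26 to 27.2 CPM in batch 2 and 6.37 to 11.9 CPM in batch 1. In any library Tie1, Cldn5, Cdh5, Pecam1 and Emcn had at most 3, 5, 11, 18 and 19 counts. Kdr, Tek and Flt1 reached 83, 91 and 298 counts. Flt1 was the higher gene (log2 fold change 4.11), and Tek and Pecam1 were the lower ones. With 0.283 to 0.499 CPM in batch 1, Flt1 passed the low-count filter only through batch 2 and so had to differ. Its median in batch 2 was 3.90 CPM, with 21.6 CPM in gRNA 6. Of 8 mural markers 5 were tested, 2 higher and 2 lower, with sums of 366 to 595 CPM in batch 2 and 335 to 405 CPM in batch 1, most of it from Notch3 and Cspg4; Pdgfrb had at most 10 counts. Cspg4 (log2 fold change 1.18) and Notch3 (0.46) were the higher genes, and Myh11 did not pass. Acta2, smooth muscle actin, had at most 1.09 CPM in batch 2 and 57.9 to 164 CPM in batch 1 (log2 fold change −7.67). Rgs5 was lower as well (−4.96), with at most 1.65 CPM in any library. Acta2 and Rgs5 were near 0 in batch 2, passed the low-count filter only through batch 1, and so had to differ. The fibroblast list had 3 of 8 genes tested, with Col1a1 and Pdgfra higher and Foxc1 lower. Its sums were 73.5 to 148 CPM in batch 2 against 100.4 to 122 CPM in batch 1. In any library Dcn, Lum, Col3a1, Twist1 and Col1a2 had at most 1, 2, 8, 10 and 14 counts. Col1a1, Pdgfra and Foxc1 reached 245, 1457 and 1829 counts. The epithelial list had 0 of 6 tested and a sum of at most 0.801 CPM, and Krt14 had 0 counts in all 12 libraries.

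Markers of neural cell types were counted in the same way, against 28.4% higher and 33.1% lower among all genes tested. Nothing about these cell types is read from the counts. Dcx, Snap25 and Prom1 had at most 0.874, 0.145 and 0.947 CPM in batch 2, and passed the low-count filter only through batch 1. Of 6 astrocyte markers 1 was higher in batch 2 and 4 lower, with sums of 103 to 268 CPM in batch 2 and 429 to 670.1 CPM in batch 1; gRNA 6 (194 CPM) and control 6 (268 CPM) were above the other libraries of batch 2 (103 to 137 CPM). Of 8 neuronal markers 7 were tested, 1 higher and 5 lower, with sums of 624 to 781 CPM in batch 2 and 691 to 995 CPM in batch 1. Most of these sums came from Map2, with 600 to 745 CPM in batch 2 and 607 to 918 CPM in batch 1, which did not pass. Tubb3 was the higher gene (log2 fold change 2.34), and the 5 lower ones ranged from −5.03 (Snap25) to −2.29 (Elavl3). Of 7 oligodendrocyte lineage markers 4 were tested, 3 of them higher, with sums of 178 to 334 CPM in batch 2 and 77.5 to 121 CPM in batch 1. The neural stem cell list had 1 higher and 7 lower of 12, with sums of 2446 to 3254 CPM in batch 2 and 2813 to 4507 CPM in batch 1. The part of these markers in the levels of the laminins, nidogens and perlecan was not tested.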

How the data were processed

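RNA-seq was made from total RNA of mouse neural stem cells in 12 libraries, purified with the RNeasy Mini kit and depleted of ribosomal RNA in a stranded kit, per the labels' protocols. Each deposited file holds raw counts of reads per gene, made by the authors on GRCm39 with HTSeq after Trimmomatic, STAR and SAMtools, per the submitters' processing notes. Tool versions, annotation and strand setting were not given in the sources used here; a gene's reads may therefore include those of an overlapping or antisense gene. Library sizes and tests exclude the 5 HTSeq summary lines. Of 57132 identifiers, 51880 (90.8%) matched a symbol, and 0 pairs of libraries were identical. The P-site table was not analysed here, since its libraries match no label and its transcripts could not be matched to genes.

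The count test was edgeR's (4.0.16, R 4.3.3): filterByExpr with a minimum count of 10, TMM scaling, the quasi-likelihood test and glmTreat with a minimum fold of 2, adjusted by Benjamini-Hochberg over all genes. All 12 libraries entered each fit, with treatment and batch as terms, or with their interaction. Group and batch came from the labels. The members and gene lists were chosen with earlier results of these data known. The rule for named genes took all 10 members, from each other list the 2 largest rises and 2 largest falls between batches among genes averaging 50 counts or more, and the 5 genes that followed Lama5 most closely; 1 gene the rule took is not reported here. Alternatives were limma-voom (limma 3.58.1), DESeq2 1.42.0, other filters, total-count scaling, no second term and leaving out each library; leaving out both libraries numbered 3 or 6 was added after seeing the data.

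A simulated table with 200 changed genes was run through each fit. At 1.5-fold, 2-fold and 4-fold, the batch comparison (17151 genes) recovered 62.7%, 74.6% and 93.9% of them, with 6 false calls. The gRNA comparison (17418 genes) recovered 62.7%, 61.2% and 92.4%, with 9 false calls. Each gene was drawn independently, without the patterns that real libraries such as gRNA 3 and control 3 share across genes. These shares therefore do not measure what the tests could recover from the real libraries. Figures used Python 3.11.15, pandas 2.3.3 and matplotlib 3.10.9.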

Additional observations from a re-analysis of the deposited data

Results flagged for a closer look

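In groups of 6 libraries, a library was singled out where its gap to the nearest other, divided by the range of the group, was above Dixon's 95% critical value of 0.625. Among 40 groups screened, in which chance singles out about 1 in 20, this held for 3. For Lamb2, control 6 stood above the other control libraries (gap 0.685 of the range) and above the other libraries of batch 2 (gap 0.671 of the range). For Lamc1, gRNA 3 stood above the other gRNA libraries (gap 0.643 of the range), a group that holds both batches.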

How the results depend on the processing

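No paired analysis was possible because the RNA-seq labels carry no replicate numbers and the footprint libraries, which do, could not be tied to their table. The planned values of coding-sequence P-sites per member were not run. Without a low-count filter 37217 genes were tested: 6672 passed the rule of a change past 2-fold between batches (3981 with the filter), 1 gene passed for gRNA against control (0 with it) and 42 for the interaction (0 with it). The number of the 10 genes called between batches was 8 or 9 when any 1 library was left out, and 7 without both libraries numbered 3, where Lamc1 was lost. Lamb2 passed between batches without the filter (0.23), with total-count scaling (0.27) and without control 4 (0.24), and in no other setting. No called change between batches turned its direction in any setting run. The median log2 fold change of all genes between batches was −0.03, 0.05 with total counts and −0.15 in DESeq2. In the gRNA comparison, Lama5 stayed between −0.27 and −0.19 in the settings run. Of the values within a batch, Lama2 moved to 0.80 in batch 1 without control 3, and in batch 2 Lamb2 moved to −0.07 and Nid1 to 1.86 without control 6, and to −0.03 and 2.11 without both libraries numbered 6. The cause was not tested. Depth limits Nid1, Lama4 and Lama2 in batch 2, where a library held at most 14 counts.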
